A study of Mus musculus with 18 samples.

Results

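TFEB mutant cells of the murine B cell line WEHI-231 were compared with parental WEHI-231 cells after 18 h of B cell antigen receptor (BCR) stimulation. The comparison rests on 6 of the 18 RNA sequencing libraries of the series, chosen by genotype and time from their labels: 2 of parental cells (genotype WT), 2 of mutant clone #A-59 and 2 of mutant clone #B-20. All 6 came from cells stimulated for 18 h with 10 µg/ml F(ab')2 fragments against mouse IgM, so no unstimulated cells are among them. The 2 libraries of a group stem from 2 independent experiments. WEHI-231 is a lymphoma line with features of immature B cells. Each mutant is a single clone, grown from 1 cell after CRISPR/Cas9 editing with RNAs directed at exons of Tfeb. Differences between a clone and the parental line that arose in cloning and those that arose from the mutation cannot be told apart in these libraries. What both clones have in common was therefore described first, and what sets them apart from each other was described beside it.

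TFEB is a basic helix-loop-helix leucine zipper transcription factor that binds E-box motifs with the core CACGTG and is best known for switching on lysosomal and autophagy genes. It is kept in the cytosol while nutrients are plentiful and moves into the nucleus upon starvation or signaling. In immature B cells, strong BCR ligation without help from T cells leads to growth arrest and apoptosis, while ligation also raises MHC class II, through which B cells present antigen peptides to T cells.

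In both clones 124 genes were higher and 256 were lower than in parental cells at 18 h. A gene was called differentially expressed (DEG) when edgeR's quasi-likelihood test gave a Benjamini-Hochberg adjusted p (FDR) under 0.01 and the log2 fold change lay beyond 1 in either direction. Of the 15318 genes tested, 753 were DEGs in #A-59 (4.92%), 307 higher (2.00%) and 446 lower (2.91%). In #B-20 there were 951 DEGs (6.21%), 293 higher (1.91%) and 658 lower (4.30%). The genes higher in both clones made up 0.810% of all tested genes and those lower in both 1.67%. Both comparisons use the same 2 parental libraries, so deviations of these libraries enter both. Another 30 genes (0.196%) were DEGs in opposite directions. Median log2 fold changes of the shared genes were 1.89 in #A-59 and 1.90 in #B-20 for those higher, and −2.32 and −2.28 for those lower, where the medians over all genes were −0.0216 and 0.0101. Of the 256 lower genes 73 fell beyond a log2 of 3 in both clones, and 20 of the 124 higher genes rose that far in both.

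Library totals at 18 h were 11223588 and 19340288 counts in parental cells, 19456443 and 16765274 in #A-59, and 27472928 and 26984977 in #B-20. The smallest of all 18 libraries was thus parental replicate 1 at 18 h, against which both clones were set. The 2 libraries of every group differed by more than sampling noise, with a chi-square per degree of freedom of 3.66 for parental cells, 8.87 for #A-59 and 16.9 for #B-20 at 18 h, a measure that also grows with depth. It was highest, 58.25, for #B-20 at 6 h, which enters the estimate of the spread. Of all 15318 genes tested, edgeR gave an unadjusted p under 0.05 to 4429 in #A-59 and 5189 in #B-20. Counts of list members at that p are to be read beside these. How many of all genes reached it in the same direction in both clones was not counted. All 10 B cell markers were tested and none was a DEG in either clone by edgeR. Of them 7 in #A-59 and 5 in #B-20 had an unadjusted p under 0.05, and DESeq2 called 1 in #A-59. Their summed level was 12332 to 12691 CPM (read counts relative to library size, scaled by the TMM method) in parental cells, 13526 to 14320 in #A-59 and 10960 to 11608 in #B-20. Markers of T cells summed to 59 to 77.6 CPM, those of erythroid cells to 2.05 to 3.32 CPM and those of fibroblasts or endothelial cells to 4.55 to 9.92 CPM, and between 4 and 5 markers of each list had 0 counts in all 6 libraries. Markers of myeloid cells summed to 10.1 and 12.7 CPM in parental cells, 28.9 and 29.9 CPM in clone #A-59 and 8.88 and 8.95 CPM in clone #B-20, with 4 of 12 at 0 in all 6. Of the markers of cells other than B cells, 11 were tested, and DEGs were Itgam, a myeloid integrin (1.74), and Lat, a T cell adaptor (−1.34), both in #A-59. The part of other cells in the results was not tested.

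Tfeb itself, on chromosome 17 of GRCm38 from 47737037 to 47792416, stood at 99.7 and 99.9 CPM in parental cells, 35.4 and 40.5 CPM in clone #A-59 and 42.3 and 54.1 CPM in clone #B-20. Every library of a clone was below both parental libraries, and the transcript was still counted in all of them. Relative to parental cells Tfeb fell to a log2 fold change of −1.40 in #A-59 (SE 0.11, adjusted p = 2.93e-08) and −1.05 in #B-20 (SE 0.11, adjusted p = 6.79e-07). Without #B-20 replicate 1 the value of #B-20 was −0.88, with a correction for GC content −0.89 and without a filter on low counts −0.97, each short of the log2 threshold. Mitf, a close relative of Tfeb, was higher in #A-59, with 4.35 and 5.49 CPM against 1.07 and 1.45 CPM in parental cells. In #B-20 it was at 1.71 and 1.90 CPM, short of the threshold (log2 fold change 0.47, adjusted p = 0.212). The other members of the MiT/TFE and folliculin-Rag list (13 tested) were DEGs in neither clone.

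Since TFEB binds the CACGTG core, this motif was searched on both strands of RefSeq promoters (GRCm38.p6). Each promoter window runs from 250 bases before to 50 bases after a start site of a gene. Of the 10227 tested genes with a promoter in that table, 1179 (11.5%) held CACGTG. The share was 9.64% among the genes higher in both clones (8 of 83 with a promoter) and 11.2% among those lower in both (20 of 179). Both shares lay near that of all genes. In the lysosome list 19 of 56 promoters (33.9%) held the motif. The longer motif TCACGTG, which contains CACGTG, was in 6.83% of all promoters, 7.23% of those of higher genes, 5.59% of those of lower genes and 32.1% of those of lysosomal genes. The variant CATGTG was found in 10.7%, 12%, 14.5% and 23.2%, in the same order. A match describes the letters of these windows only. The promoters of 6 shared genes described in this text are given, with CACGTG in capitals. They were picked because they hold the motif, and promoters of other shared genes, without a match, are not printed. The 6 are Lztfl1 (chr9:123717576-123717875, minus strand, GRCm38.p6) with 2 matches, Arhgap15 (chr2:43748574-43748873, plus strand), Ripk3 (chr14:55788808-55789107, minus strand), Sgk1 (chr10:21993640-21993939, plus strand), Radx (chrX:139480117-139480416, plus strand) and Tnfrsf8 (chr4:145315115-145315414, minus strand).
Lztfl1: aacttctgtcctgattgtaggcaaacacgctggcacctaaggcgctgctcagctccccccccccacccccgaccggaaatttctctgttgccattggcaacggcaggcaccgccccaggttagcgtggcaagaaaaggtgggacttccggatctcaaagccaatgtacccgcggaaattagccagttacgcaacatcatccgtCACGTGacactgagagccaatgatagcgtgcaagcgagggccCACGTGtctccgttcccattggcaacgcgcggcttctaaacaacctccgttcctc
Arhgap15: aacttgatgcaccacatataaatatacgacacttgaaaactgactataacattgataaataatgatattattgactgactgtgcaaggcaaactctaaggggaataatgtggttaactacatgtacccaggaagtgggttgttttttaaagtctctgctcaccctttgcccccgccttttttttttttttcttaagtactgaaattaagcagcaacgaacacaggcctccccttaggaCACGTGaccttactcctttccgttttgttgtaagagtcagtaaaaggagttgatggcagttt
Ripk3: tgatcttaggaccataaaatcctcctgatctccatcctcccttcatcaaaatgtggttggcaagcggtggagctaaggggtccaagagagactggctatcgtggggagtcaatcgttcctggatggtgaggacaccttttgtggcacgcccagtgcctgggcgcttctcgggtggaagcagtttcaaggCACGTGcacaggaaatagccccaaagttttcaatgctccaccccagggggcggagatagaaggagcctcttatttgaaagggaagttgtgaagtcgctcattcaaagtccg
Sgk1: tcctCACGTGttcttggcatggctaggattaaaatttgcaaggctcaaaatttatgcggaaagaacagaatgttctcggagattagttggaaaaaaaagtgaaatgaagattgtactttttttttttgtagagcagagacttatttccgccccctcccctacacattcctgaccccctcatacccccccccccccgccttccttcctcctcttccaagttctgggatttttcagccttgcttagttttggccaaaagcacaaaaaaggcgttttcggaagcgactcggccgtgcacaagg
Radx: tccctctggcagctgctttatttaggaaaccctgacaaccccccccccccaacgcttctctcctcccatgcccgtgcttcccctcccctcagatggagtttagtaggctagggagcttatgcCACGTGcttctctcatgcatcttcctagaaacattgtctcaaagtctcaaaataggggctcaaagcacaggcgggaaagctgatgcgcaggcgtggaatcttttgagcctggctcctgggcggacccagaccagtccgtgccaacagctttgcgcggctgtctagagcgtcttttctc
Tnfrsf8: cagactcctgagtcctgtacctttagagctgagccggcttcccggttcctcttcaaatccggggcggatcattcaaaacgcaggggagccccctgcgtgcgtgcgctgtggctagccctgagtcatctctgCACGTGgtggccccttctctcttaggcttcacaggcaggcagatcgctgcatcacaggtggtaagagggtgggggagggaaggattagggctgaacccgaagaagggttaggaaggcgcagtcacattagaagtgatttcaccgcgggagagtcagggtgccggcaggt
In Lztfl1 the matches begin 47 and 5 bases before the start site of the window. The match begins 12 bases before that site in Arhgap15, 61 in Ripk3, 246 in Sgk1, 128 in Radx and 119 in Tnfrsf8. For Arhgap15 the annotated gene begins at 43748798, upstream of the match. Lztfl1, Ripk3, Radx and Tnfrsf8 were lower in both clones, and Arhgap15 and Sgk1 were higher, so the motif stood in promoters of genes of either direction.

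Among the genes higher in both clones, the 12 leading ones, ranked by the smaller of both fold changes among genes with at least 5 CPM and an established name (no Gm number, Rik or pseudogene symbol), included surface receptors, a phosphatase and regulators of small GTPases. Nrp2 encodes neuropilin-2, a coreceptor for semaphorins and VEGF. Its level was 3.48 and 2.44 CPM in parental cells, 64.2 and 67.2 CPM in clone #A-59 and 62.4 and 86.3 CPM in clone #B-20. It rose by a log2 fold change of 4.52 in #A-59 (SE 0.17, adjusted p = 1.60e-12) and 4.70 in #B-20 (SE 0.17, adjusted p = 6.35e-13), and no library of a clone came near the parental ones. Frmd4a, a scaffold of cell polarity, was at 0.535 and 0.259 CPM in parental cells, 11.5 and 11.9 CPM in clone #A-59 and 7.53 and 8.39 CPM in clone #B-20. Dpp4, the cell surface peptidase CD26, went from 1.52 and 1.61 CPM to 22.2 and 19.6 CPM in clone #A-59 and 24.1 and 25.7 CPM in clone #B-20. The tyrosine phosphatase gene Ptpn13 had 11.6 and 9.49 CPM in parental cells, 102 and 83.8 CPM in clone #A-59 and 181 and 133 CPM in clone #B-20. On the log2 scale the fold change was 3.16 in #A-59 (SE 0.18) and 3.92 in #B-20 (SE 0.18).

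Further members of the leading group act on small GTPases. Dab2ip, a Ras GTPase-activating protein, rose from 1.34 and 2.44 CPM to 22.1 and 19.2 CPM in clone #A-59 and 17.7 and 19.7 CPM in clone #B-20. Arhgap15, which switches off Rac, rose from 1.78 and 2.70 CPM to 24.6 and 23.8 CPM and to 21.7 and 20.9 CPM. Elovl7, an elongase of long-chain fatty acids, showed almost the same fold change in both clones (3.11 and 3.13 on the log2 scale, SE 0.18 in each). The cadherin family gene Cdhr2 differed between them: its level was 26.1 and 25.1 CPM in clone #A-59, 11.3 and 11.3 CPM in clone #B-20 and 0.624 and 1.09 CPM in parental cells. Unc5cl (3.60 in #A-59 and 2.94 in #B-20 on the log2 scale), the transcription factor Sim1 (3.25 and 2.80), the homeobox gene Cdx1 (2.72 and 2.47) and Cp, which encodes ceruloplasmin (2.94 and 3.16), completed the 12 leading higher genes. Cp lost its call in #A-59 without parental replicate 2 (2.40, adjusted p = 0.0508) or #A-59 replicate 2 (2.82, adjusted p = 0.0101), and in #B-20 without parental replicate 2 (2.62, adjusted p = 0.0235).

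The leading lower genes were close to absent in the clones. Smad1, a transcription factor of BMP signaling, had 772 and 844 CPM in parental cells, 0.21 and 2.59 CPM in clone #A-59 and 0.782 and 1.16 CPM in clone #B-20. On the log2 scale the fold change was −9.24 in #A-59 (SE 0.80, adjusted p = 3.06e-05) and −9.70 in #B-20 (SE 0.80, adjusted p = 1.59e-05). Radx, which acts at replication forks, stood at 194 and 209 CPM in parental cells and at most at 0.422 CPM in the clones. Bcl2l15, a Bcl-2 family gene with pro-apoptotic activity, went from 366 and 380 CPM to 4.98 and 4.64 CPM in clone #A-59 and 7.25 and 6.08 CPM in clone #B-20, a log2 fold change of −6.27 (SE 0.15) and −5.80 (SE 0.14). In contrast to Smad1, the 2 libraries of each clone lay close together for Bcl2l15.

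For other leading lower genes the clones were near the floor of counting, and where a clone held 3 counts or fewer a ratio of counts or a bound is given. Macc1, a regulator of MET expression, had 35.1 and 38.4 CPM in parental cells, 0 counts in both libraries of #A-59, which makes it at least 442-fold lower there (against a floor of 3 counts over the group), and 1 count in #B-20 (2042-fold lower, exact 95% interval 366 to 80706). The gene of von Willebrand factor, Vwf, had 13.7 and 16.3 CPM in parental cells, 2 counts in #A-59 (274-fold lower, exact 95% interval 75.5 to 2272) and 0 in #B-20 (at least 282-fold lower). Cd226, an activating receptor best known from T and NK cells, had 9.99 and 10.2 CPM in parental cells and 1 count over both libraries of either clone (361-fold lower in #A-59, 95% interval 64.4 to 14323, and 557-fold lower in #B-20, 95% interval 99.2 to 22062). These bounds and intervals cover counting error only. Tnfrsf8, which encodes the TNF receptor CD30, was at 27 and 31.2 CPM in parental cells and at most 0.187 CPM in any clone library. The integrin chain Itgb3 was at 37.8 and 38.9 CPM and at most at 1.12 CPM. Spata17 (−6.60 and −5.52 on the log2 scale), Egfl6 (271-fold lower in #A-59 with 2 counts, 95% interval 74.5 to 2243, and −5.11 on the log2 scale in #B-20) and the insulin-like growth factor binding protein gene Igfbp5 (−5.06 and −6.66 on the log2 scale) were lower as well. No library of a clone overlapped the parental range for any of the leading genes given here. These genes were chosen for large differences in the same libraries, so the lack of overlap is no separate result.

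**Figure D1:**
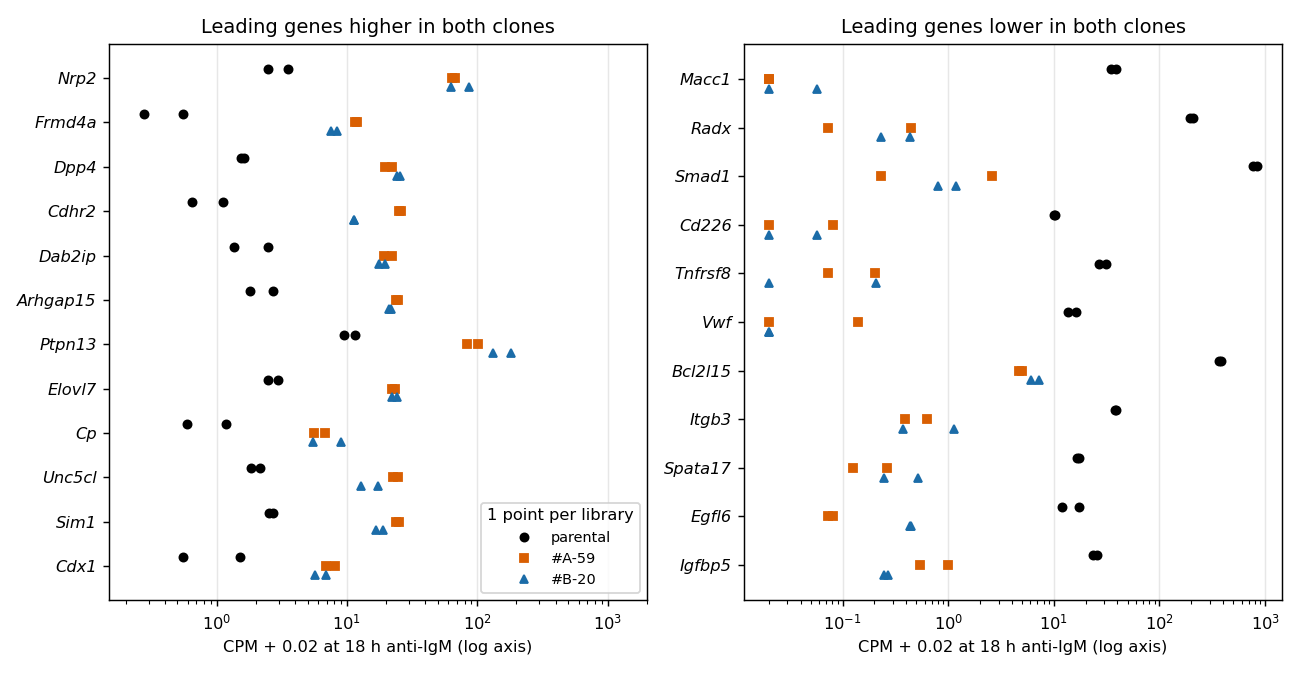
Level of the 12 leading genes higher and of 11 leading genes lower in both clones at 18 h, in CPM plus 0.02 on a log axis, with 1 point for each of the 2 libraries of parental cells, #A-59 and #B-20. Parental points lie left of all clone points in the first panel and right of them in the second. The genes were chosen by the size of the difference in these same libraries, so this is no separate result. Smad1 runs from 772 and 844 CPM in parental cells to at most 2.59 CPM in the clones. CPM are not scaled by gene length, so points are to be compared within a gene.

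The classical MHC class II chain genes H2-Aa, H2-Ab1 and H2-Ea were lower in both clones, and lower in #B-20 than in #A-59. Of the 18 genes tested, 4 were lower DEGs in #A-59 and 10 in #B-20, none was higher, and H2-Aa, H2-Ab1, H2-Ea and H2-Eb2 were shared (called genes made up 4.92% and 6.21% of all genes). The list medians were −0.22 in #A-59 and −1.17 in #B-20. H2-Aa, the alpha chain of I-A, was at 222 and 246 CPM in parental cells, 57.8 and 56.9 CPM in clone #A-59 and 3.41 and 4.51 CPM in clone #B-20. This was a log2 fold change of −2.03 in #A-59 (SE 0.20, adjusted p = 2.95e-06) and −5.88 in #B-20 (SE 0.25, adjusted p = 1.66e-10). Its partner chain H2-Ab1 went from 26.5 and 32.1 CPM to 5.29 and 4.34 CPM and to 0.213 and 0.224 CPM. H2-Ea went from 129 and 147 CPM to 27.8 and 28.5 CPM and to 0.96 and 1.79 CPM. The 3 groups did not overlap for any of these 3 genes. H2-Eb2 had 24 counts over the parental libraries, 3 in #A-59 and 2 in clone #B-20, and lost its call in #A-59 without any of the 4 libraries compared (−2.86 to −3.60, adjusted p from 0.0193 to 0.0511) and with DESeq2 (−3.29, adjusted p = 0.0519).

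Ciita, the master transactivator of MHC class II, followed the same order. Dexi overlaps it on the genome. The level of Ciita was 81.7 and 84.6 CPM in parental cells, 43.9 and 45 CPM in clone #A-59 and 4.83 and 6.72 CPM in clone #B-20. The difference passed both criteria in #B-20 (log2 fold change −3.85, SE 0.17) but not in #A-59, where −0.90 (SE 0.14, adjusted p = 1.49e-04) fell short of the log2 threshold. The beta chain H2-Eb1 was likewise called in #B-20 (−3.14, SE 0.18) and fell short in #A-59 (−0.94, SE 0.16), where it passed without parental replicate 1 (−1.02). Cd74, the invariant chain that guides class II molecules to endosomes, stood at 1892 and 1796 CPM in parental cells and 2145 and 1891 CPM in #A-59, where the groups overlapped. In #B-20 it was at 791 and 779 CPM (−1.23, SE 0.12). Lgmn, an endosomal peptidase, was at 102 and 114 CPM in parental cells, 58.2 and 58.2 CPM in clone #A-59 and 19.1 and 21.4 CPM in clone #B-20. Set directly against #A-59, #B-20 was lower for Ciita, H2-Aa, H2-Ab1, H2-Ea, H2-Eb1, Cd74 and Lgmn, 7 of the 18 genes (4.82% of all genes were called between the clones, 2.83% lower in #B-20). In the MHC class I list (22 tested), the nonclassical H2-M3 was the single shared DEG, with 4.73 and 5.08 CPM in parental cells, 2.20 and 2.59 CPM in clone #A-59 and 1.56 and 1.34 CPM in clone #B-20. It lost its call in #A-59 without any of the 4 libraries (−0.92 to −1.15) and when the libraries compared were fitted alone (−1.02, adjusted p = 0.0105).

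No lysosomal or autophagy gene on the lists was a shared DEG. Over all genes 0.810% were higher and 1.67% lower in both clones, so that at this share few or none would be called in lists of this length. In single clones, 2.91% of all genes were lower in #A-59 and 4.30% lower in #B-20. Of 68 lysosomal genes tested, 2 were lower in #A-59 and 3 lower in #B-20, with medians of 0.06 and −0.16. None was shared by edgeR or by DESeq2, while 8 had an unadjusted p under 0.05 and a lower level in both clones. Among 48 autophagy genes, edgeR and DESeq2 called none in either clone, with 16 in #A-59 and 15 in clone #B-20 at an unadjusted p under 0.05. The largest absolute log2 fold change of an autophagy gene was 0.59 in #A-59 and 0.64 in #B-20. Lgmn, which stands in both the lysosome and the MHC class II list, was the lysosomal gene with the largest loss in #B-20.

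**Figure D2:**
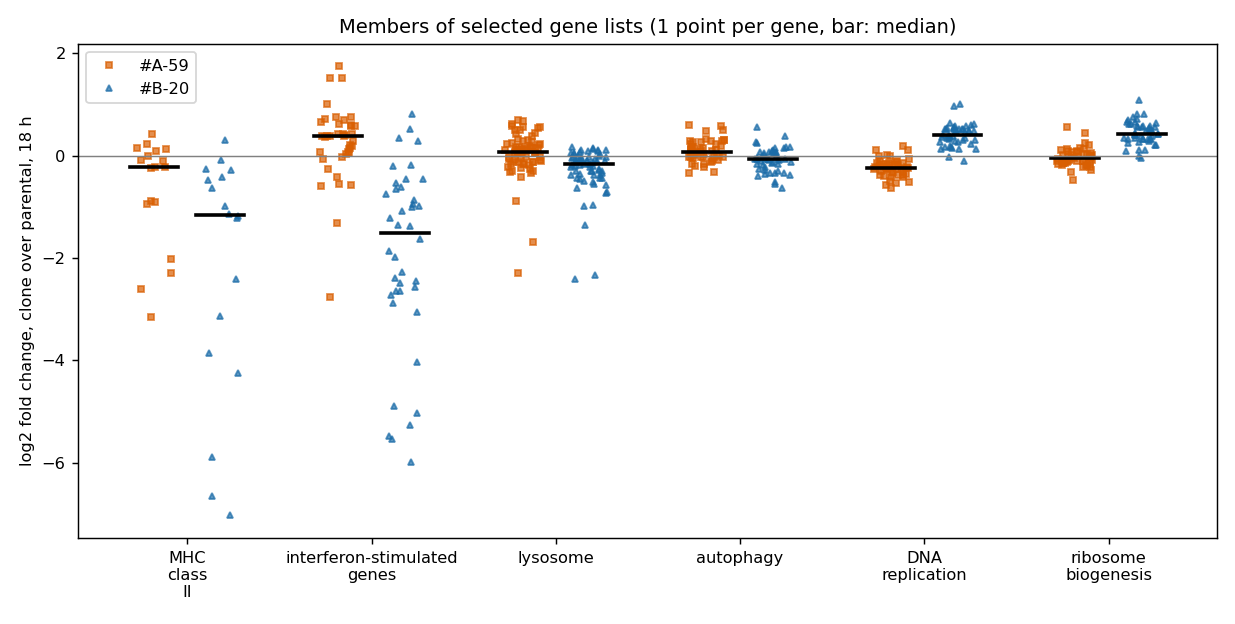
Log2 fold changes over parental cells at 18 h of the members of 6 gene lists, with 1 point per gene, squares for #A-59, triangles for #B-20 and a bar at the median. MHC class II genes reached −7.03 in #B-20, interferon-stimulated genes had medians of 0.38 in #A-59 and −1.51 in clone #B-20, and autophagy genes stayed within 0.64 of 0 in both clones.

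Among genes of cell death, Bmf was higher and Bcl2l15 and Ripk3 were lower in both clones. In the pro-apoptotic list (15 tested), Bcl2l15 was lower in both clones, as described, and Bmf was higher. Bmf encodes a BH3-only protein that antagonizes Bcl-2 and Bcl-xL. It was at 16.1 and 16.8 CPM in parental cells, 40 and 31.4 CPM in clone #A-59 and 50.1 and 42.3 CPM in clone #B-20. On the log2 scale the fold change was 1.12 in #A-59 (SE 0.15), which became 0.94 without #A-59 replicate 1 and thereby lost the call, and 1.49 in #B-20 (SE 0.15). Bcl2l1, which encodes Bcl-xL, was not called, with 7.67 and 6.43 CPM in parental cells, 7.07 and 5.85 CPM in clone #A-59 and 10.6 and 9.03 CPM in clone #B-20. In the anti-apoptotic list (6 tested) only #B-20 had DEGs, the A1 paralogs Bcl2a1b and Bcl2a1d (1.14 and 1.26, without parental replicate 2 0.94 and 1.11, no longer called, and for Bcl2a1b also 0.87 without #B-20 replicate 2). Reads of these near-identical paralogs may have been split between them. Hrk had at most 1 count in any of the 6 libraries and was not tested. Ripk3, the kinase of necroptosis, went from 19.9 and 21.7 CPM in parental cells to 0.943 and 1.21 CPM in clone #A-59 and 0.569 and 0.224 CPM in clone #B-20. It fell by 4.28 in #A-59 (SE 0.28, adjusted p = 2.12e-09) and by 5.68 in #B-20 (SE 0.31, adjusted p = 1.15e-10) on the log2 scale, the single shared DEG among 27 genes of necroptosis and caspases.

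Among receptors that position B cells in lymphoid tissue, Cxcr4 and Ccr7 were lower and Ackr4 was higher in both clones. Of 19 chemokine and positioning receptors tested, #A-59 had 2 higher and 4 lower DEGs and #B-20 1 higher and 4 lower. The shares over all genes were 2.00% higher and 2.91% lower in #A-59 and 1.91% and 4.30% in #B-20. Cxcr4, the receptor for CXCL12, was at 29.5 and 29.2 CPM in parental cells, 4.61 and 5.85 CPM in clone #A-59 and 11.3 and 7.50 CPM in clone #B-20, log2 fold changes of −2.49 (SE 0.26) and −1.64 (SE 0.23). Ccr7, which guides cells to the T cell zone, went from 7.31 and 8.35 CPM to 2.10 and 3.20 CPM and to 2.81 and 2.61 CPM, with nearly equal fold changes of −1.58 (SE 0.24) and −1.54 (SE 0.22). Ackr4, a scavenger of CCR7 ligands, was higher, with 0.624 and 0.519 CPM in parental cells, 1.99 and 2.05 CPM in clone #A-59 and 2.67 and 3.88 CPM in clone #B-20. Its call in #A-59 was lost without any of the 4 libraries (1.68 to 1.96, adjusted p from 0.0153 to 0.0735), and Acad11 overlaps it in the genome. S1pr1, which lets cells leave lymphoid organs, was lower in #A-59 (15.4 and 12.1 CPM against 42.5 and 37.3 CPM in parental cells) but not in #B-20 (49.9 and 33.1 CPM). Its value in #B-20 was 0.06 and turned to −0.26 without #B-20 replicate 1 and to −0.04 without parental replicate 2. Ccr1 was called in #B-20 (−2.06) and not in #A-59 (−0.39). The interleukin-7 receptor gene Il7r had 0 counts in all 6 libraries, which allows up to 3 counts in each.

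The lists of costimulatory and of guidance genes held 6 shared DEGs each (of 30 and 26 tested), the largest counts of any list. MHC class II held 4 of 18. Of all genes, 0.810% were higher and 1.67% lower in both clones. DESeq2 called 2 higher and 3 lower costimulatory genes and 3 higher and 3 lower guidance genes in both. Of 30 costimulatory, checkpoint and activation genes, Dpp4 was higher and Cd274, Havcr1, Tigit, Slamf7 and Ly9 were lower in both clones. Cd274, which encodes PD-L1, was at 30.1 and 27.5 CPM in parental cells, 4.56 and 3.02 CPM in clone #A-59 and 6.04 and 3.95 CPM in clone #B-20 (−2.91, SE 0.22, and −2.52, SE 0.21). Slamf7 went from 24.8 and 23.9 CPM to 2.83 and 2.65 CPM in clone #A-59 and 11.2 and 11.6 CPM in clone #B-20, so that #A-59 lay below #B-20. Tigit had 20 and Ly9 17 counts over both parental libraries and at most 1 count in either clone, and their calls were lost without single libraries (adjusted p from 0.0181 to 0.0405 in #A-59 and 0.0194 to 0.048 in #B-20 for Tigit, and from 0.0188 to 0.0691 and 0.016 to 0.0341 for Ly9). DESeq2 did not call Tigit in #B-20 (adjusted p = 0.0184) or Ly9 in #A-59 (adjusted p = 0.0162). Havcr1, which encodes Tim-1, was called in #A-59 at −2.54, and at −1.57 to −2.98 without single libraries it was not, except without #A-59 replicate 2, nor was it when the libraries compared were fitted alone (−2.53).

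Among 27 integrins and adhesion molecules, Itgb1, Itgb3, Cd9 and Alcam were lower in both clones and none was higher in both. The shares over all genes were 1.67% lower and 0.810% higher in both. Itgb1, the common beta chain of many integrins, was found at 1241 and 1339 CPM in parental cells, 507 and 488 CPM in clone #A-59 and 506 and 496 CPM in clone #B-20. Its log2 fold changes of −1.38 (SE 0.11, adjusted p = 1.87e-08) and −1.36 (SE 0.11, adjusted p = 1.65e-08) were nearly equal, and the ranges of the clones overlapped each other but not that of parental cells. The tetraspanin gene Cd9 went from 10.3 and 11.8 CPM to 5.03 and 5.67 CPM in clone #A-59 and 1.95 and 1.45 CPM in clone #B-20, and in #A-59 it lost its call without #A-59 replicate 1 (−0.97) or parental replicate 2 (−0.95). Alcam (−1.08 and −1.22) lost its call in #A-59 without either parental library or #A-59 replicate 1 (−0.80 to −1.18) and in #B-20 without parental replicate 2 (−1.08) or #B-20 replicate 1 (−0.79). Itgb7, which pairs with alpha 4 for gut homing, was called in #B-20 (40.9 and 35.4 CPM against 174 and 189 CPM in parental cells) and not in #A-59 (127 and 111 CPM).

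Genes on the list of guidance receptors and semaphorins, not all of which encode receptors, moved in both directions. Of 26 tested, Nrp2, the plexin gene Plxna2 and Unc5cl were higher in both clones, and Plxna1, Efnb1 and Unc5a were lower. Plxna2 was at 1.07 and 0.674 CPM in parental cells, 2.78 and 4.46 CPM in clone #A-59 and 2.99 and 3.32 CPM in clone #B-20, and without parental replicate 2 its value in #B-20 was 1.55 (adjusted p = 0.0129), no longer called. Plxna1, another plexin, went the other way, from 3.75 and 3.16 CPM to 0.367 and 0.543 CPM and to 0.853 and 0.709 CPM. The ephrin gene Efnb1 fell from 35.2 and 40.2 CPM to 13.2 and 12.8 CPM in clone #A-59 and 14 and 16.2 CPM in clone #B-20. Unc5a, a netrin receptor, had 37 counts over the parental libraries, 0 in #A-59 (at least 14.4-fold lower) and 2 in #B-20 (33.3-fold lower, exact 95% interval 8.60 to 285).

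The list of BCR chains and coreceptors held 3 shared DEGs among 23 tested, where 0.810% of all genes were higher and 1.67% lower in both clones. Outside this list, the immunoglobulin gene Ighg3 was also lower in both (−4.61 and −5.23). Cr2, the complement receptor CD21 that lowers the threshold of BCR activation, was higher, with 51.9 and 50.2 CPM in parental cells, 205 and 206 CPM in clone #A-59 and 247 and 339 CPM in clone #B-20 (2.01, SE 0.24, and 2.52, SE 0.24). The Fc receptor-like gene Fcrl1 was at 33.3 and 26.7 CPM in parental cells, 69.7 and 61.2 CPM in clone #A-59 and 76.1 and 84.2 CPM in clone #B-20, and without parental replicate 2 its value in #A-59 was 0.98, short of the threshold. The lambda constant region gene Iglc1 was lower, from 5.08 and 5.55 CPM to at most 0.426 CPM in either clone, and its reads may be shared with other lambda constant genes. In single clones, 2.00% of all genes were higher in #A-59 and 4.30% lower in #B-20. The 39 proximal BCR kinases and adaptors had 2 higher DEGs in #A-59 and 2 lower in #B-20 and none in common by edgeR or DESeq2. At an unadjusted p under 0.05, 5 of them were higher and 1 was lower in both. Of 26 genes of B cell identity and plasma cells, Jchain, the joining chain of secreted IgM and IgA, was the single shared DEG, with 6.33 and 7 CPM in parental cells, 1.94 and 1.87 CPM in clone #A-59 and 2.67 and 2.72 CPM in clone #B-20.

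Signaling genes downstream of other receptors were among the shared DEGs in both directions. Shared DEGs made up 0.810% (higher) and 1.67% (lower) of all genes. In the TGF-beta and BMP list (28 tested), the receptor gene Bmpr2 was higher while its effector gene Smad1 was lower. Bmpr2 rose from 7.49 and 6.33 CPM to 49.3 and 38.4 CPM in clone #A-59 and 23.4 and 17.3 CPM in clone #B-20. In the PI3K and FoxO list (34 tested), the kinase gene Sgk1 was higher and the phosphatase gene Inpp4b and the pseudokinase gene Trib2 were lower. Sgk1 went from 0.357 and 0.83 CPM to 3.77 and 3.02 CPM in clone #A-59 and 8.74 and 8.32 CPM in clone #B-20, a log2 fold change of 2.38 (SE 0.33) and 3.71 (SE 0.29). Trib2 went from 37.2 and 40.2 CPM to 3.14 and 3.50 CPM and to 9.92 and 7.50 CPM. Inpp4b went from 16.6 and 16 CPM to 5.24 and 6.51 CPM and to 4.94 and 4.51 CPM. For Sgk1 and Trib2 #B-20 lay above #A-59, and for Bmpr2 below it. The Wnt receptor gene Fzd4 (−2.24 and −2.28) and Rnf43 (−1.63 and −1.93), a ubiquitin ligase that removes Wnt receptors, were lower in both clones among 26 Wnt and TCF genes. The interleukin-10 receptor gene Il10ra was the single shared DEG of 35 cytokine receptor and Jak-Stat genes, with 3.66 and 2.80 CPM in parental cells, 40.4 and 36 CPM in clone #A-59 and 13.4 and 11.6 CPM in clone #B-20.

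Few proliferation and biosynthesis genes were shared DEGs, which also held for all genes (0.810% higher and 1.67% lower). The cell cycle inhibitor gene Cdkn2a was lower in both clones among 22 G1 genes (−2.40 and −1.42). In #B-20 it was not called without parental replicate 1 (−1.41, adjusted p = 0.0279), parental replicate 2 (−1.41, adjusted p = 0.0563) or #B-20 replicate 1 (−1.03, adjusted p = 0.0767), nor by DESeq2 (adjusted p = 0.014). The linker histone gene H1f2 went from 42.9 and 41.5 CPM to 17.2 and 15.4 CPM in clone #A-59 and 18.4 and 17.3 CPM in clone #B-20, although histone transcripts without poly(A) tails are poorly caught in mRNA libraries. Serpinb6b had 56 counts over the parental libraries and 3 in either clone (21.8-fold lower in #A-59, 95% interval 7.10 to 109, and 33.6-fold lower in #B-20, 95% interval 10.9 to 168), and its value in #A-59 without parental replicate 2 was −3.80 (adjusted p = 0.0104), short of the call. No gene was shared, by edgeR or by DESeq2, among 46 genes of DNA replication, 47 of mitosis, 76 cytosolic ribosomal protein genes, 48 of ribosome biogenesis, 71 of oxidative phosphorylation, 7 mitochondrially encoded ones, 35 of glycolysis and hypoxia, 42 of lipid synthesis, 40 of ER stress and the ATF4 response, 26 p53 targets, 13 of the Myc network, 27 of calcium entry and NFAT, 25 immediate early genes, 20 of ERK feedback or 6 of recombination. At an unadjusted p under 0.05 and in the same direction in both clones, these lists held between 0 and 8 genes each. The medians of DNA replication genes had opposite signs, −0.23 in #A-59 and 0.41 in #B-20, with 4 of 46 genes above 0 in #A-59 and 44 in #B-20. Among 22 NF-kB genes, edgeR called 1 higher in #A-59 and 4 in clone #B-20 and none in both. Of all genes 2.00% were higher in #A-59 and 1.91% in #B-20. DESeq2 called 1 NF-kB gene in both clones, and 7 were higher in both at an unadjusted p under 0.05. Tnfaip3, an inhibitor of NF-kB signaling, was at 23.9 and 16.2 CPM in parental cells, 54 and 34.9 CPM in clone #A-59 and 66.6 and 47.5 CPM in clone #B-20. It was called in #B-20 (1.53, adjusted p = 0.00147), but not without #B-20 replicate 1 (1.28, adjusted p = 0.0131) or parental replicate 2 (1.25, adjusted p = 0.0323), nor without a filter on low counts (1.61, adjusted p = 0.0104) or with the compared libraries alone (1.54, adjusted p = 0.0298). In #A-59 it missed the FDR (1.18, adjusted p = 0.0121), but passed with DESeq2 (1.16, adjusted p = 0.00165), with at least 10 counts per library (1.18, adjusted p = 0.00659) and without #A-59 replicate 2 (1.46, adjusted p = 0.00433). Nfkbia, which encodes IkB alpha, was called in #B-20 (1.24, SE 0.14) and fell short in #A-59 (0.93, SE 0.14).

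**Figure D3:**
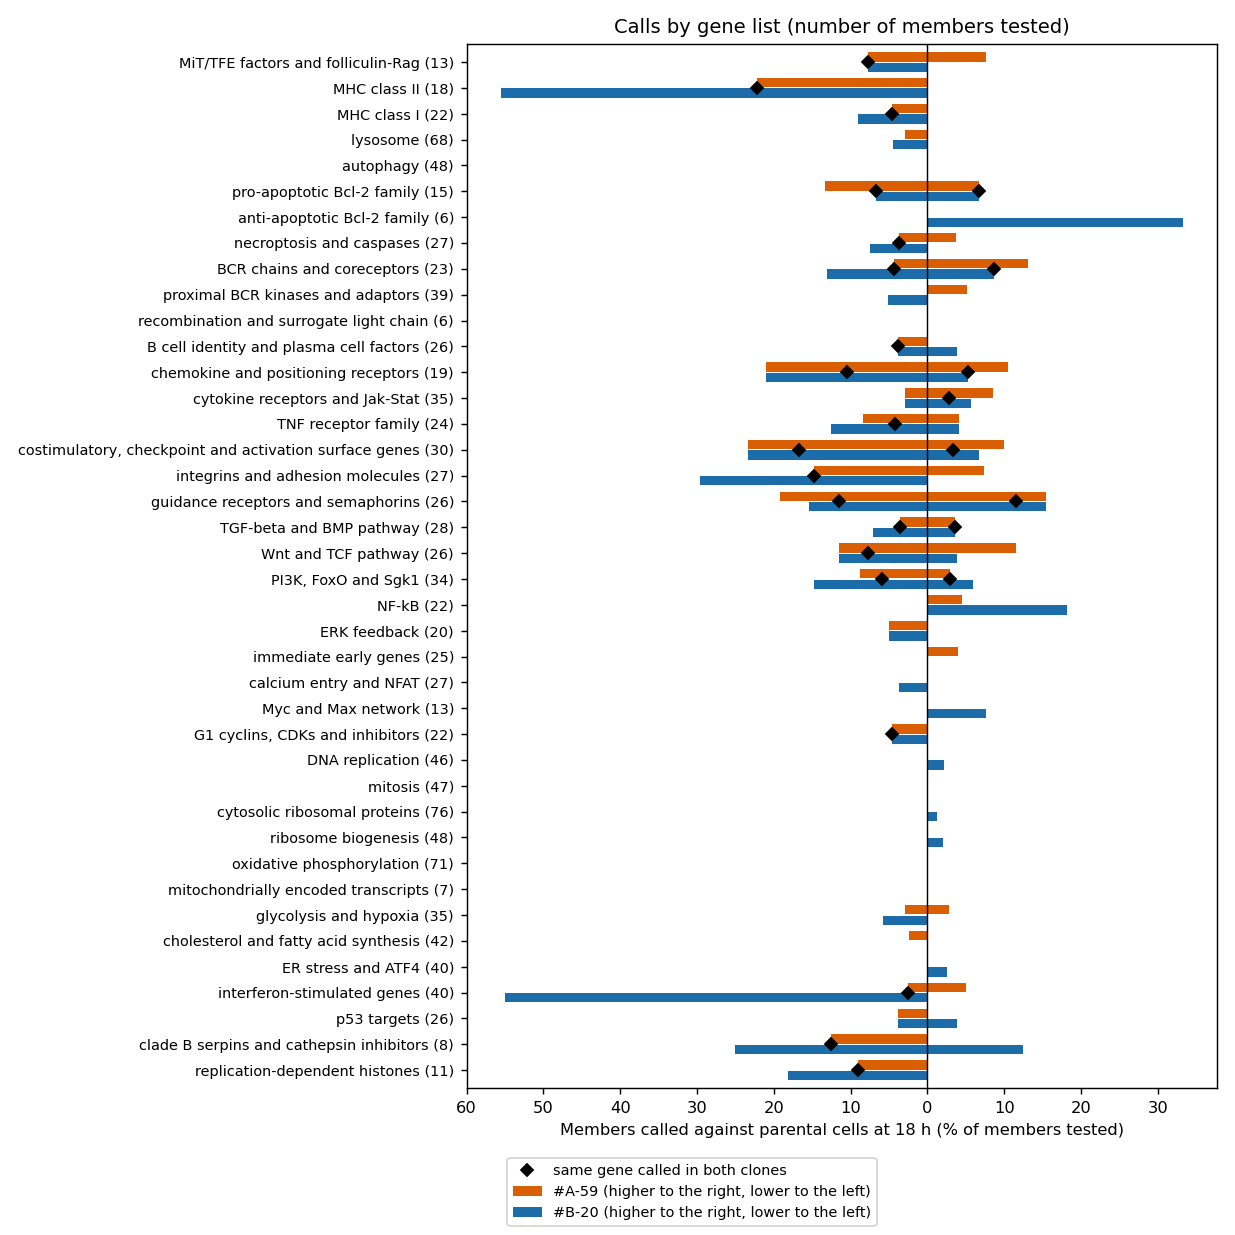
Share of the tested members of each gene list that were DEGs at 18 h, in percent, with bars to the right for genes higher and to the left for genes lower than in parental cells, orange for #A-59 and blue for #B-20. Black diamonds mark the share called in both clones, 4 of 18 genes for MHC class II and 4 of 27 for integrins and adhesion molecules, while the bars of interferon-stimulated genes reach 22 of 40 lower in #B-20 only.

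Interferon-stimulated genes set the clones apart. Of 40 tested, 22 were lower in #B-20 and none was higher, whereas #A-59 had 2 higher and 1 lower, and the medians were −1.51 and 0.38. Between the clones 24 of the 40 were called, all lower in #B-20. Of all genes, 4.30% were lower in #B-20 than in parental cells and 2.83% lower in #B-20 than in #A-59. Oas1a, an activator of RNase L, was the single shared DEG, with 3.66 and 1.30 CPM in parental cells, 0.314 and 0.362 CPM in clone #A-59 and 0.107 and 0.0373 CPM in clone #B-20, and its call in #A-59 was lost without parental replicate 1 (−1.91), #A-59 replicate 1 (−2.67) or #A-59 replicate 2 (−2.87). Oasl2 was at 8.47 and 4.25 CPM in parental cells, 8.17 and 4.58 CPM in clone #A-59 and 0.178 and 0.0746 CPM in clone #B-20. Ifit1, an RNA-binding antiviral protein, was at 6.69 and 1.56 CPM in parental cells, 3.56 and 1.45 CPM in clone #A-59 and 0.0355 and 0.0746 CPM in clone #B-20. In parental cells and #A-59 the first library held more of both genes than the second. Rtp4 had 27 counts over the parental libraries and 1 in #B-20 (48.7-fold lower, exact 95% interval 8.02 to 1992), and its call in #B-20 was lost without parental replicate 1 (−4.44), #B-20 replicate 1 (−7.24) or #B-20 replicate 2 (−4.48). The nucleic acid sensor gene Zbp1 was at 91.4 and 50.3 CPM in parental cells, 83.4 and 63.7 CPM in clone #A-59 and 14.7 and 14.4 CPM in clone #B-20. Values of #A-59 near 0 changed sign without single libraries: Zbp1 from 0.07 to −0.31 and Oasl2 from 0.06 to −0.40 without parental replicate 2, and Ifit1 from −0.59 to 0.72 without parental replicate 1.

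Single genes also moved in opposite directions, 30 in all. Mzb1, a chaperone of IgM secretion, was at 8.03 and 7.21 CPM in parental cells, 53.2 and 54.3 CPM in clone #A-59 and 1.81 and 1.83 CPM in clone #B-20, a log2 fold change of 2.83 (SE 0.13) against −2.05 (SE 0.17). Aldoc (1.66 and −2.97) and Neurod4 (1.53 and −2.21) showed the same arrangement. Neurod4 was not called in #A-59 without parental replicate 2 (1.31, adjusted p = 0.0355) or #A-59 replicate 2 (1.32, adjusted p = 0.0139). Cstf2t, a cleavage stimulation factor, was lower in #A-59 (4.09 and 3.38 CPM) and higher in #B-20 (63.9 and 67.4 CPM) than in parental cells (13 and 11 CPM). Fxyd6 (−3.40 in #A-59 and 1.54 in clone #B-20) and the kinase gene Stk26 (−1.34 and 2.80) did likewise. Of the 380 shared genes, 48 were also called between the clones, 14 of those higher (11.3%) and 34 of those lower (13.3%). Of all genes 4.82% were called between the clones. The shared genes were chosen for large differences in the same clone libraries.

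Most of the shared differences were present before stimulation. Of the 124 genes higher in both clones at 18 h, 93 (75%) were also called higher in both at 0 h, which is 63.7% of the 146 genes (0.953% of all tested) higher in both at 0 h. Of the 256 lower genes, 153 (59.8%) were called lower in both at 0 h, which is 72.2% of 212 (1.38% of all tested). At 0 h, 18 of the higher and 58 of the lower genes were called in neither clone. The 0 h and 18 h comparisons use different libraries. Whether the difference at 18 h departed from that at 0 h was tested as an interaction, which passed for 5 genes in #A-59 (0.0326% of all) and 25 in #B-20 (0.163%). Among the shared genes, 4 departed in both clones: Lztfl1, Rnf157, Gm29695 and Gm36043.

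Lztfl1, which regulates traffic into cilia and whose promoter is printed above with 2 E-boxes, differed far more from parental cells at 18 h than before stimulation. It lies on chromosome 9 from 123694404 to 123717625. Parental cells held 26.9 and 23.8 CPM before stimulation, 91.8 and 98.1 CPM after 6 h and 118 and 116 CPM after 18 h. In #A-59 it stood at 11.4 and 15.6, 11.1 and 16.3, and 18.1 and 20.7 CPM at these times, and the #B-20 libraries held 14.8 and 15.7, 14.1 and 12.7, and 11.9 and 14.8 CPM. At 18 h every clone library lay below the parental 0 h level. Against parental cells the log2 fold change went from −0.92 at 0 h to −2.59 at 18 h in #A-59 (interaction −1.67, SE 0.22, adjusted p = 0.00463) and from −0.73 to −3.13 in #B-20 (interaction −2.40, SE 0.23, adjusted p = 2.72e-05). Rnf157, a ubiquitin ligase gene, went the other way: parental cells changed from 50 and 57.5 CPM at 0 h to 18.0 and 19.6 CPM at 18 h, while #A-59 went from 72.4 and 60.1 to 55.6 and 49.0 CPM and #B-20 from 36.7 and 37.4 to 42.6 and 40.6 CPM. Its interaction was 1.16 in #A-59 (SE 0.17, adjusted p = 0.00569) and 1.68 in #B-20 (SE 0.17, adjusted p = 4.70e-05). Gm36043 lies within Cd274 and Gm29695 overlaps Lemd1 on the genome, and non-stranded libraries do not show from which of 2 overlapping genes a read came. In #A-59 the interactions of Lztfl1 (−1.57 to −1.76, adjusted p from 0.0136 to 0.0508), Rnf157 (1.08 to 1.26, adjusted p from 0.0136 to 0.0508) and Gm36043 (−1.39 to −1.57, adjusted p from 0.0195 to 0.0606) missed the FDR without any of the 4 libraries compared at 18 h. In #B-20 Lztfl1 (−2.25 to −2.57) and Rnf157 passed without each of them, while Gm36043 missed it without either parental library (−1.44 and −1.37) or #B-20 replicate 2 (−1.35). The interaction of Gm29695 missed the FDR without parental replicate 2 in either clone (1.51 in #A-59, adjusted p = 0.294, and 1.43 in #B-20, adjusted p = 0.136). It also missed it in #A-59 without any clone library of 18 h (1.93 to 2.11, adjusted p from 0.0106 to 0.0538), and in #B-20 without either #B-20 library (1.92 and 1.98) or with the compared libraries alone (1.94, adjusted p = 0.0231). Cd274 itself moved in the same direction as Gm36043, with interactions of −1.26 in #A-59 (adjusted p = 0.159) and −1.29 in #B-20 (adjusted p = 0.0607), which did not pass.

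**Figure D4:**
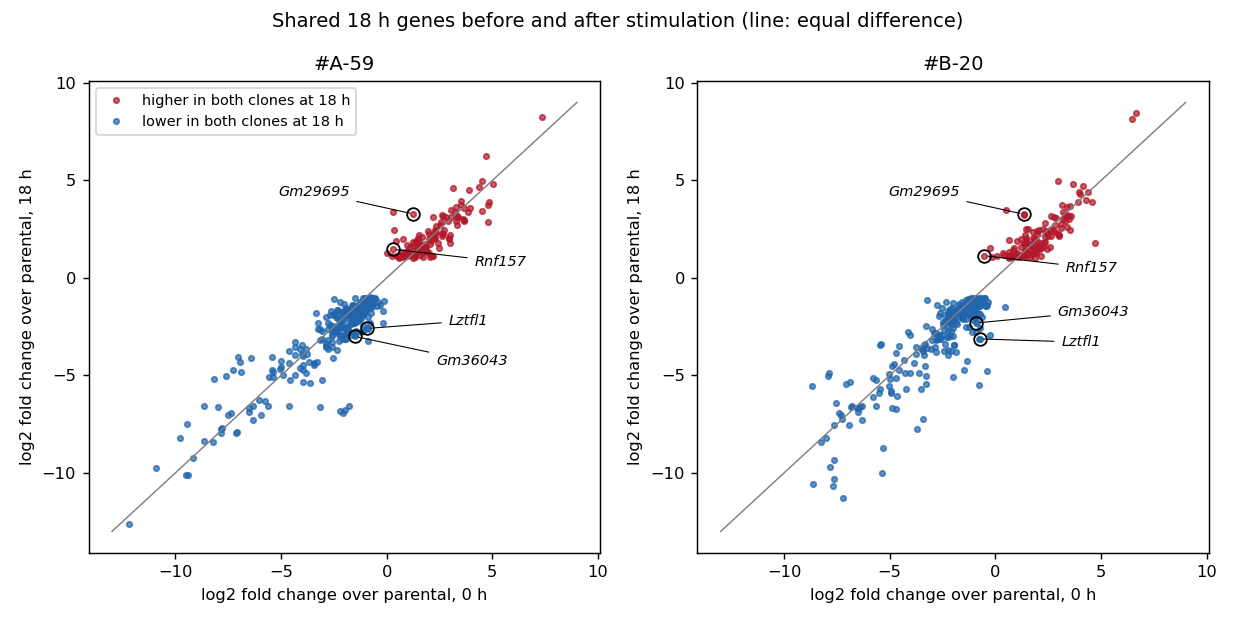
Log2 fold change over parental cells at 0 h (x axis) and 18 h (y axis) of the 124 genes higher (red) and 256 genes lower (blue) in both clones at 18 h, 1 point per gene, with #A-59 on the left and #B-20 on the right and a line of equal difference. Circles mark the 4 genes whose difference changed in both clones, such as Lztfl1 with −0.73 at 0 h and −3.13 at 18 h in #B-20.

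For the MHC class II genes the difference was not shown to depart from that at 0 h. Ciita was at 25 and 28.3 CPM in parental cells, 7.58 and 9.63 CPM in clone #A-59 and 1.47 and 1.55 CPM in clone #B-20 before stimulation, and the interaction was 0.74 in #A-59 (adjusted p = 0.29) and 0.28 in #B-20 (adjusted p = 0.723). For H2-Aa it was 0.84 (adjusted p = 0.50) and −0.39 (adjusted p = 0.745). H2-Aa, H2-Ab1 and H2-Ea were lower DEGs in both clones at 0 h as well. Ciita and H2-Eb1, which fell short of the call in #A-59 at 18 h, were lower DEGs in both clones at 0 h. A p that misses the threshold does not show equal differences at both times, and the standard error of the interaction of H2-Aa was 0.29 in #A-59 and 0.43 in #B-20.

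**Figure D5:**
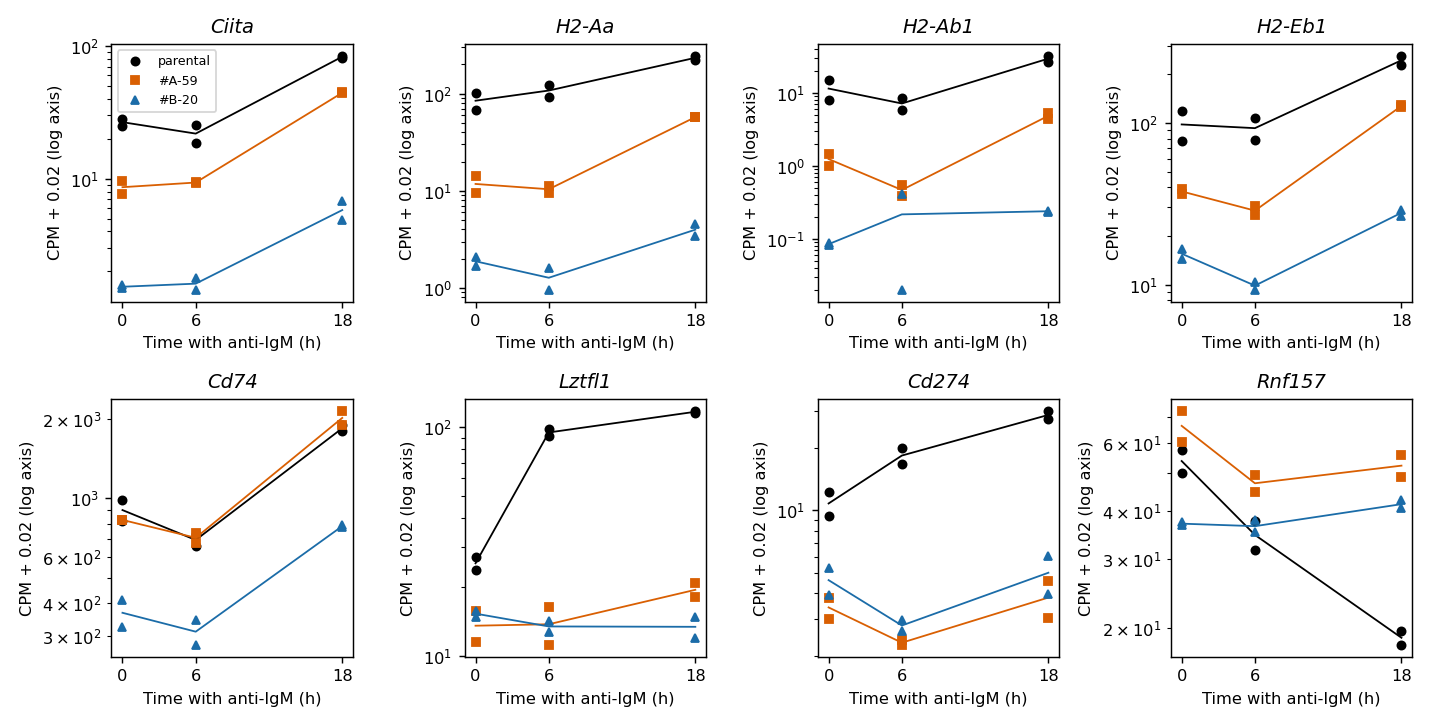
Level of 8 genes in CPM plus 0.02 (log axis) against hours of anti-IgM treatment, with 1 point per library, lines through the means of 2 libraries, and black for parental cells, orange for #A-59 and blue for #B-20. Ciita and the class II chain genes H2-Aa, H2-Ab1 and H2-Eb1 were higher at 18 h than at 0 h in every library of parental cells and of both clones, and #B-20 lay below #A-59 at 18 h, whereas Lztfl1 reached 118 and 116 CPM in parental cells and at most 20.7 CPM in the clones.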

How the data were processed

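RNA of WEHI-231 cells was sequenced in 18 libraries, and the 6 taken at 18 h were compared. Raw counts of reads for each Ensembl gene, all whole and not normalized, were deposited by the authors. According to the submitters' processing notes the authors used bcl2fastq 2.20.0.422, STAR 2.5 with GRCm38 and featureCounts 1.5.0-p1, on reads of non-stranded mRNA libraries, which were single-end per the paper's methods. The counting options are not given in the sources used here. Groups were taken from the sample labels.

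In R 4.3.3, edgeR 4.0.16 was used to filter genes (filterByExpr, 15318 kept), to scale libraries by TMM and to fit all 18 libraries by quasi-likelihood, using 1 mean per group (9 groups) and robust dispersions, so that the spread was estimated across groups. Contrasts were each clone against parental cells, the clones against each other and the 18 h minus the 0 h difference. P-values were adjusted by Benjamini-Hochberg within each contrast, and DEGs passed an FDR of 0.01 with a change beyond 1 on the log2 scale. Standard errors (SE) were derived from the test, as the absolute log2 fold change divided by the square root of its F statistic. A count of 0 allows up to 3 counts, and bounds, given as ratios to a floor of 3 counts over a group, and exact 95% intervals cover counting error only. With libraries of 11223588 to 27472928 counts at 18 h, 2 per group, p-values rest on the spread between libraries of a group, estimated across all 9 groups.

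Named genes were Tfeb, genes the study follows (Ciita, class II chains, Cd74, Cxcr4, Ccr7, Il7r, Bcl2l15, Hrk and Bcl2l1), for either direction the 12 shared DEGs (at least 5 CPM, symbols with a Gm number, Rik or -ps left out) whose smaller fold change was largest, list members called in both clones, up to 3 members of a list called in a single clone, genes of opposite direction, and genes with an interaction in both clones. A gene the rule named is not reported here. The members and the 45 gene lists were chosen with earlier results of these data known. Of the list genes 1404 were matched and 8 were not. Symbols came from GENCODE vM39 (51731 of 55487 identifiers), and positions and promoters from RefSeq on GRCm38.p6, matched by symbol and chromosome.

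Alternatives were DESeq2 1.42.0, its size factors, 2 other filters, fits of the compared libraries alone, a replicate block, each library left out, a GC offset (loess, span 0.5) and a contrast of the mean of both clones. On simulated data with 200 genes changed by a log2 of 2 among 14929 genes, edgeR called 193 in each clone comparison and at most 1 unchanged gene. The changed genes were drawn above a minimum mean count, and the simulated spread was edgeR's own estimate. Recovery of changed genes near the floor of counting was thus not tested.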

Additional observations from a re-analysis of the deposited data

Results flagged for a closer look

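Among the genes named, several differed between the clones at 18 h, by edgeR's quasi-likelihood test of #B-20 against #A-59 with Benjamini-Hochberg adjustment. All values are log2 fold changes of #B-20 over #A-59. The MHC class II genes were lower in #B-20: Ciita by −2.95 (adjusted p = 2.32e-10), H2-Aa by −3.86, H2-Ab1 by −4.43, H2-Ea by −4.36, H2-Eb1 by −2.20, Cd74 by −1.36 and Lgmn by −1.52. Interferon-stimulated genes were lower as well, with Ifit1 at −5.39 (adjusted p = 1.14e-03), Oasl2 at −5.59, Rtp4 at −6.78 and Zbp1 at −2.34. Ifit1 and Rtp4 were at the floor of counting in #B-20, with 3 and 1 counts over both libraries, so that the ratios of counts were 47.2-fold (exact 95% interval 15.7 to 233) for Ifit1 and 146-fold (25.6 to 5840) for Rtp4, and the fitted values are less certain than their digits. Among surface receptors, Ccr1 (−1.67), Cd9 (−1.64), Itgb7 (−1.64), Bmpr2 (−1.11), Il10ra (−1.61) and Cdhr2 (−1.18) were lower in #B-20, and S1pr1 (1.59) and Slamf7 (2.05) were higher. Mitf was lower (−1.44), and Sgk1 (1.32) and Trib2 (1.39) were higher. The 6 named genes of opposite direction were Mzb1 (−4.88), Aldoc (−4.63), Neurod4 (−3.74), Cstf2t (4.13), Fxyd6 (4.94) and Stk26 (4.14). The #B-20 libraries at 18 h were deeper (27472928 and 26984977 counts) than those of #A-59 (19456443 and 16765274 counts), and the part of depth was not tested.

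The difference from parental cells at 18 h departed from that at 0 h for a few named genes, by the interaction term of the same model. The values were −1.67 in #A-59 and −2.40 in #B-20 for Lztfl1, 1.16 and 1.68 for Rnf157, 2.02 and 1.94 for Gm29695, and −1.49 and −1.41 for Gm36043. Nfkbia departed in #B-20 (1.21, adjusted p = 5.00e-03). With 2 libraries in a group, which of them lies apart cannot be told.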

How the results depend on the processing

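Counts of DEGs depended on the setting. When each library had to hold 10 counts or more, there were 433 in #A-59, 565 in #B-20, 120 lower in both clones and 416 between the clones. In that setting 137 of the 256 shared lower genes were not tested and 119 were called. A contrast of the mean of both clones, with both on the same side of parental cells, gave 228 higher and 500 lower genes. DESeq2 called 118 of the 124 shared higher and 210 of the 256 shared lower genes. The few genes whose difference departed from 0 h depended on the setting: in #A-59 there were 11 with DESeq2, 20 without a filter on low counts and 9 with the replicate block, and in #B-20 47, 80 and 38, and 15 when the compared libraries were fitted alone. Under the other settings that kept all libraries these counts stayed within 1.5 times those reported.

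With single libraries left out, DEGs ranged from 520 to 766 in #A-59, from 706 to 949 in #B-20 and from 510 to 705 between the clones, shared higher genes from 83 to 120, shared lower genes from 169 to 228, and genes departing from 0 h from 1 to 4 in #A-59 and from 6 to 23 in #B-20. The lowest shared counts, 83 and 169, came without parental replicate 2, as did the 6 in #B-20. In #A-59 the count of 5 departing genes fell to 2 without parental replicate 1 and to 1 without parental replicate 2 or either #A-59 library, and in #B-20 that of 25 fell to 10 without parental replicate 1 and 15 without #B-20 replicate 2. Of the shared genes found without parental replicate 2, 77 and 161 were among the 124 and 256. Ranges that crossed 0 were those of S1pr1 in #B-20 (−0.26 to 0.33) and, in #A-59, of Bcl2l1 (−0.25 to 0.03), Zbp1 (−0.31 to 0.56), Ifit1 (−1.40 to 0.72) and Oasl2 (−0.42 to 0.61), none of which was called there. Fitted with the compared libraries alone, Alcam in both clones, H2-M3, Havcr1, Oas1a and Aldoc in #A-59, and Ifit1, Zbp1 and Tnfaip3 in #B-20 lost their calls. Of 176 values of 88 named genes in either clone, 139 kept direction and side of the threshold under every alternative in which the gene was tested.

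Deviations of equally numbered 18 h libraries correlated by 0.244 between parental cells and #A-59, −0.008 between parental cells and #B-20 and 0.452 between the clones. The labels do not say whether equal numbers mark the same experiment, and the main fit held no replicate block. With the replicate block 136 genes were higher and 268 lower in both clones, and Tnfaip3 was called in #A-59 (1.15).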
